A study of Homo sapiens with 10 samples.

Results

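The tubulin genes described here are 10 in number, chosen by symbol alone: the alpha tubulins TUBA1A, TUBA1B, TUBA1C and TUBA4A, the beta tubulins TUBB, TUBB2A, TUBB2B, TUBB3 and TUBB6, and the gamma tubulin TUBG1. They are 10 of 11258 transcripts present in both the RNA-Seq and the Ribo-Seq table, and all 10 were found in both. The cells were BJ fibroblasts, human fibroblasts immortalised with telomerase, and all groups shared this background. An untreated control was set against cells given nutlin-3a for 2, 4, 6 or 19 h. Nutlin-3a keeps MDM2 from binding p53 and so activates p53. Each of the 5 conditions had 1 RNA-Seq library of poly(A) RNA and 1 Ribo-Seq library of ribosome-protected mRNA fragments, so no difference given here has a replicate check and no p-value was computed. Errors are counting errors only, from read numbers recovered from the spacing of the deposited values. The tables were scaled to between 23845559 and 27554288 reads for RNA-Seq and between 7744900 and 14460726 for Ribo-Seq, with the lowest total in the 19 h Ribo-Seq library.

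Microtubules are polymers of dimers, each of an alpha and a beta tubulin chain, and they form the cytoskeletal tracks of interphase cells and the spindle of dividing cells. Gamma tubulin sits in ring complexes at the centrosome that start new microtubules. Vertebrates carry several alpha and beta genes, called isotypes, whose proteins are much alike and differ most at the acidic C-terminal tail. Cells also adjust tubulin mRNA to the pool of free dimers: when soluble tubulin rises, mRNAs of tubulin under translation are degraded, a process called tubulin autoregulation.

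The tubulin make-up of the untreated fibroblasts was uneven. In FPKM, reads scaled to transcript length and library total, TUBB (ENSG00000196230) stood at 1089 ± 4.1 (counting SE, also below) and TUBA1B (ENSG00000123416) at 634 ± 4.0 in the RNA-Seq control. TUBB6 (ENSG00000176014) followed with 254 ± 2.3, TUBA1C (ENSG00000167553) with 106 ± 1.6 and TUBA1A (ENSG00000167552) with 60.9 ± 1.2. TUBG1 (ENSG00000131462) was at 34.9 ± 0.87 FPKM and TUBB2A (ENSG00000137267) at 20.7 ± 0.74. The lowest were TUBA4A (ENSG00000127824) with 4.97 ± 0.31, TUBB3 (ENSG00000198211), best known from neurons, with 4.34 ± 0.32, and TUBB2B (ENSG00000137285) with 0.504 ± 0.10. Each step in this order was larger than its counting error except that between TUBA4A and TUBB3. Only reads that matched a single transcript were kept, so a tubulin that shares more sequence with its relatives may be understated against the others. Changes within a gene rest on the same positions in every library.

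Ribosome density, the Ribo-Seq FPKM, kept the same leading members in the control: TUBB had 994 ± 5.6, TUBA1B 622 ± 5.7 and TUBB6 310 ± 3.6 FPKM. TUBB3 was read at 9.18 ± 0.66 FPKM, above the 5.86 ± 0.48 of TUBA4A. Translational efficiency (TE), the log2 ratio of Ribo-Seq to RNA-Seq FPKM, ranged in the control from -0.13 ± 0.0098 for TUBB and -0.03 ± 0.016 for TUBA1B to 0.78 ± 0.076 for TUBB2A and 1.08 ± 0.15 for TUBB3, beside a median of -0.27 over all tested genes. The most abundant members thus had the lowest TE of the 8 tested tubulins, and the least abundant the highest. TUBA4A, outside the 8, had 0.24 ± 0.15 at an RNA level near that of TUBB3, so it did not follow this order. TE has the RNA level as its denominator, so the 2 quantities are not independent. Both assays were also scaled to the same transcript length, so a gene's TE may depend on how much of its transcript is untranslated. Reads shared with relatives were dropped in both assays, and the share lost may differ between the assays. What either adds to TE differences between genes was not tested, so this order of TE is descriptive only.

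Genes with 5 FPKM or more in 1 or more libraries of RNA-Seq and likewise of Ribo-Seq were tested, 7015 in all. Of the 10 tubulins 8 passed, TUBB3 only through its 6 h RNA-Seq library, at 5.72 FPKM. TUBA4A missed narrowly, with its highest RNA-Seq value at 4.97 FPKM, and TUBB2B stayed below 1 FPKM in every library except Ribo-Seq at 4 h, where it was at 1.45. Values were floored at 1 FPKM, and a gene is called where its log2 change from the control library exceeds a sliding cut-off. The cut-off is a fixed multiple, under 2, of the SD of the change over the gene and its 500 neighbours in level, with the multiple taken from the study.

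The sequences upstream of the members are shown because 4 of them fell together in RNA, as given further down. All 10 members matched a RefSeq promoter window of assembly GRCh38.p14, from 250 bases before to 50 bases after an annotated start, with 15 windows in all because some genes have several starts. Both strands were searched for TTTGAA, the core of the cell-cycle genes homology region, and for CCAAT, the box bound by NF-Y. In the members no match of one motif overlapped a match of the other. Among 35116 promoter windows 15.2% held TTTGAA and 34.6% held CCAAT. TUBA1C was the only member with TTTGAA, in 3 of its windows, and 7 members had a CCAAT match in 9 of the 15 windows. Some TUBA1C windows overlap, and a CCAAT match they share was counted for each. No CCAAT or TTTGAA was found in the windows of TUBA1B, TUBB2A and TUBA4A. The stretches below run 5′ to 3′ on the gene's own strand, with matches in capitals, each from a window chosen for its match where a gene has several, and ATTGG is CCAAT read on the other strand. Which start the counted transcript uses was not settled. TUBA1C, TUBB and TUBG1 were called lower in RNA at 19 h, and TUBA1A and TUBB6 were not.
TUBA1C, chr12:49264904-49264933, plus strand, 178 to 149 bases before the start: TTTGAActTTTGAAtccgCCAATcagcgcc
TUBB, chr6:30720175-30720204, plus strand, upstream of the start: ctggctcagaggCCAATggacgcctggtac
TUBG1, chr17:42609604-42609633, plus strand, 79 to 50 bases before the start: aactcgattctcATTGGagcggaggaagtt
TUBA1A, chr12:49189151-49189180, minus strand, 100 to 71 bases before the start: ttctctgggcagATTGGgggtctggaccaa
TUBB6, chr18:12308161-12308190, plus strand, 80 to 51 bases before the start: gggcccgcagccATTGGcgagcggcggggc
CCAAT matches stood upstream of members that were called and of members that were not, and TUBA1B, with the largest RNA change, had none in its window. TUBB3, not called, and TUBB2B, not tested, also had a CCAAT match, not shown here. Any part of these matches in the RNA changes was not tested. A match is a run of letters and not a measured binding site.

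TUBB encodes the main beta isotype of these cells. Its RNA-Seq values were 1089 FPKM in the control and, in order of time on nutlin-3a, 1016, 917, 560 and 355 FPKM. The values went down at every step, and the largest step lay between 4 and 6 h, with a log2 difference of -0.71 ± 0.0092. Against the control TUBB was called lower at 6 h, with a log2 change of -0.96 ± 0.0090, and at 19 h, with -1.62 ± 0.011, which left 32.6% of the control level. Among all tested genes 3.95% had a lower change at 19 h. The 6 h change has a local cut-off of 0.67 and that of 19 h one of 0.86. In these bulk libraries fewer cells that express a tubulin strongly and less tubulin RNA per cell cannot be told apart.

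TUBA1B, the main alpha isotype, had RNA-Seq values of 634, 587, 547, 386 and 173 FPKM in the same order of times. More of its fall lay after 6 h than for TUBB, with a step of -0.50 ± 0.015 between 4 and 6 h and of -1.15 ± 0.020 between 6 and 19 h, against -0.66 ± 0.012 for TUBB in the latter interval. The log2 change was -0.72 ± 0.014 at 6 h, not far past its cut-off of 0.67, and -1.87 ± 0.019 at 19 h, the largest of the members. At 6 h this call was lost with a window of 200 neighbours and with the 2 h library as baseline.

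TUBA1C, a further alpha isotype that lies beside TUBA1A and TUBA1B on chromosome 12, went through 106, 103, 94.1, 57.1 and 32.4 FPKM. It was called lower at 6 h (-0.89 ± 0.036) and at 19 h (-1.70 ± 0.044). Over the 8 changes in RNA and density its profile was closest to that of TUBB, with a root mean square distance of 0.08 on the log2 scale. The next closest pair of members was TUBA1B and TUBA1C, with 0.15.

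TUBG1, the gamma tubulin of the ring complex, was read at 34.9, 34.8, 31.7, 21.4 and 15.5 FPKM. At 6 h its log2 change of -0.71 ± 0.056 resembled that of TUBA1B in size, but the cut-off at its lower level was 1.02 and it was not called. At 19 h it was called with -1.17 ± 0.063 against a cut-off of 1.16. This margin is thin, and the call was lost with a floor of 5 FPKM, after centring on the median of all genes and when the filter was raised to a mean of 20 FPKM.

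The other 4 tested tubulins were called at no time in RNA. TUBB6, a beta isotype, had 254, 267, 281, 211 and 167 FPKM, so its level was highest at 4 h and was lower than the control at 6 and 19 h, with a log2 change of -0.60 ± 0.020 at 19 h. The alpha isotype TUBA1A was at 60.9, 54.4, 47.9, 67.3 and 46.4 FPKM, lowest at 4 and 19 h and highest at 6 h. TUBB2A, another beta isotype, stayed between 15.7 FPKM at 19 h and 22.8 at 6 h. TUBB3 was at 4.34, 4.32, 4.42, 5.72 and 4.25 FPKM, with a log2 change of -0.03 ± 0.15 at 19 h. TUBA1A and TUBB2A had their highest RNA level at 6 h, the time at which TUBB, TUBA1B and TUBA1C were first called lower. TUBB3 was highest at 6 h too, but it passed the filter only through that library, so its 6 h value adds no support. For TUBB2A the 22.8 ± 0.72 FPKM of 6 h did not differ beyond counting error from the 22.4 ± 0.72 of 2 h. TUBA4A, which was not tested, had 4.97, 4.41, 3.63, 3.52 and 2.34 FPKM, from 256 reads in the control and 132 at 19 h.

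**Figure D1:**
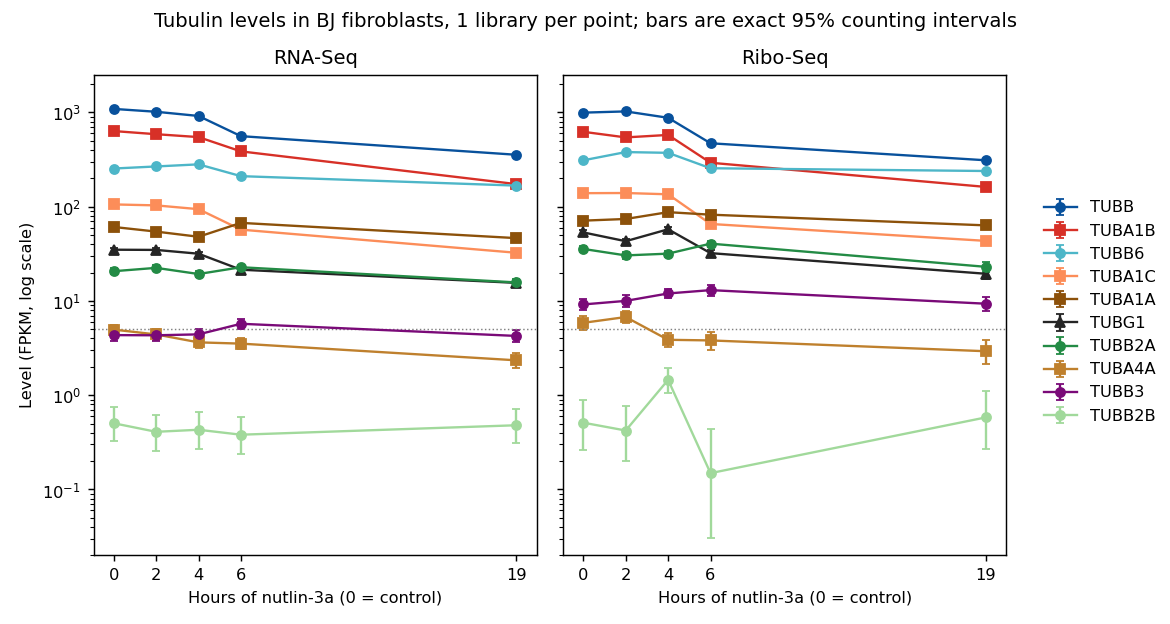
Level of each tubulin in FPKM (log scale) against hours of nutlin-3a, in RNA-Seq and in Ribo-Seq, with 1 library per point, exact 95% counting intervals and a dotted line at the filter of 5 FPKM. TUBB and TUBA1B drop from 1089 and 634 FPKM to 355 and 173 in RNA-Seq, and TUBB3 stays near 4 to 6 FPKM.

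Over the 8 tested members the median RNA log2 change went through -0.02, -0.15, -0.49 and -0.89 at 2, 4, 6 and 19 h, beside -0.05, -0.07, -0.00 and -0.07 over all tested genes. No member was called at 2 h, where 0.741% of the tested genes were called lower and 3.36% higher. None was called at 4 h, where these shares were 2.88% and 3.51%. At 6 h 3 of 8 were called lower (TUBB, TUBA1B and TUBA1C), beside 4.78% of all tested genes, and 0 higher, beside 1.63%. With a log2 change of at least 1 as the rule 0 were lower at 6 h, beside 5.39% of all tested genes. At 19 h 4 of 8 were called lower, with TUBG1 added, beside 5.10% of all tested genes, and 0 higher, beside 1.61%. The same 4 had a log2 change of at least 1 in size, as did 7.10% of the tested genes in this direction. All 8 lay below the control at 19 h, as did 57.2% of the tested genes.

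**Figure D2:**
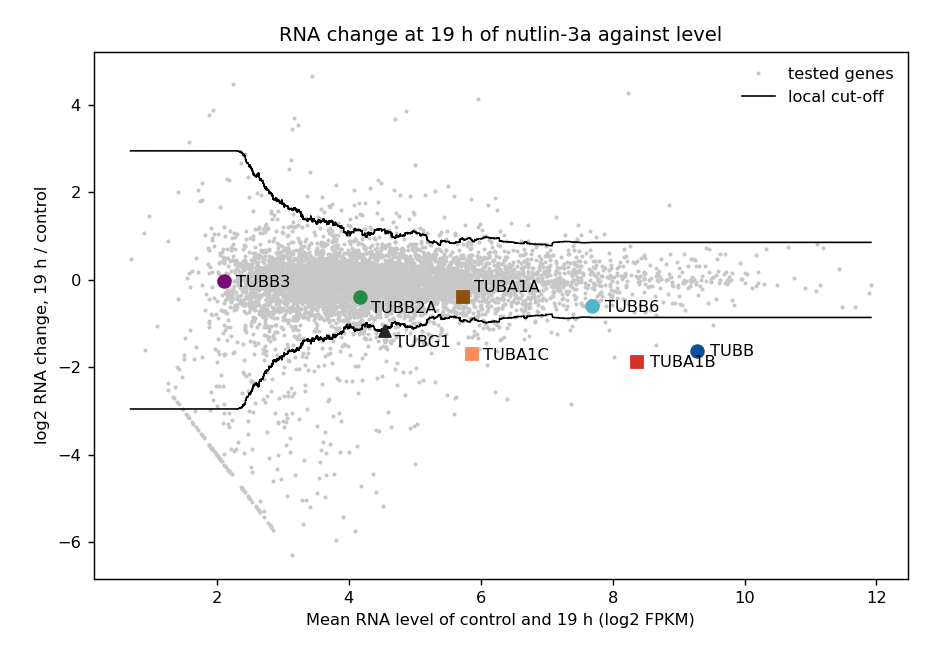
RNA log2 change at 19 h against the mean RNA level of the control and 19 h libraries (log2 FPKM) for 7015 tested genes in grey, with the local cut-off as black lines and the 8 tested tubulins as coloured symbols. TUBA1B, TUBB and TUBA1C lie well below the lower line, TUBG1 lies on it with -1.17 against 1.16, and TUBB6, TUBA1A, TUBB2A and TUBB3 lie between the lines.

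Ribosome density followed the RNA at the later times. For TUBB it was 994, 1024, 877, 470 and 310 FPKM in the control and at the 4 times in order. TUBA1B had 622, 543, 577, 292 and 162 FPKM, and TUBA1C had 139, 140, 135, 65.5 and 43.3. In each of the 3 the values of 6 and 19 h lay below all earlier ones, with a step between 4 and 6 h of -0.90 ± 0.015 for TUBB, -0.98 ± 0.024 for TUBA1B and -1.05 ± 0.050 for TUBA1C on the log2 scale. At 6 h their log2 changes from the control were -1.08 ± 0.015, -1.09 ± 0.025 and -1.08 ± 0.051. None passed its local cut-off, which was 1.22 for TUBB and TUBA1B and 1.09 for TUBA1C, so 0 of 8 members were called lower, beside 4.69% of all tested genes, and 0 higher, beside 2.62%. With the 2 h library as baseline 3 of 8 were called lower, beside 5.37% of all tested genes. All 3 had less than 50% of the control density at that time, as did 8.04% of the tested genes by a log2 change of at least 1 in size.

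At 19 h 3 of 8 members were called lower in density, beside 5.37% of all tested genes, and 0 higher, beside 1.91%. These were TUBA1B with -1.94 ± 0.035, TUBA1C with -1.68 ± 0.066 and TUBB with -1.68 ± 0.020, the last against a cut-off of 1.65. The TUBB call was lost after centring on the median of all genes, without a filter on low values and with a window of 200 neighbours. TUBG1 density was 53.3, 43.0, 57.5, 32.1 and 19.4 FPKM. Its change of -1.46 ± 0.094 at 19 h did not reach the cut-off of 1.49. By a log2 change of at least 1 in size TUBG1 counts as lower too, which makes 4 of 8 members, beside 14.9% of all tested genes. The tested genes as a whole had a median density change of -0.19 at this time, and relative to it TUBA1B was at -1.75, TUBA1C and TUBB at -1.49 and TUBG1 at -1.27.

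The remaining members kept more of their ribosome density. TUBB6 had 310, 379, 372, 256 and 239 FPKM, above the control at 2 and 4 h and at 77.0% of it at 19 h. TUBA1A had 71.1, 74.0, 87.4, 82.2 and 63.3 FPKM, with its highest value at 4 h. TUBB2A was at 35.6, 30.4, 31.7, 40.5 and 23.0 FPKM, and TUBB3 at 9.18, 10.0, 12.0, 13.02 and 9.34. As in RNA, TUBB2A and TUBB3 were highest at 6 h. TUBA4A had 5.86, 6.75, 3.87, 3.81 and 2.93 FPKM. No member was called at 2 h, beside 1.47% of tested genes lower and 4.82% higher, or at 4 h, beside 1.27% lower and 6.22% higher. The median density change of the 8 members was 0.02, 0.04, -0.50 and -1.04 at 2, 4, 6 and 19 h, beside 0.02, 0.10, -0.02 and -0.19 over all tested genes.

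RNA and density changes of the members were more closely correlated at 6 and 19 h than before. Across the 8 tested tubulins Pearson's r between them was -0.02 at 2 h and 0.39 at 4 h, and 0.99 at 6 h and 0.97 at 19 h. This is a correlation across genes that share both control libraries and both scalings, and genes are not independent replicates. At 19 h the TE changes ran from -0.29 ± 0.11 for TUBG1 to 0.23 ± 0.072 for TUBA1A, and at 6 h from -0.37 ± 0.029 for TUBA1B to 0.10 ± 0.20 for TUBB3. At these times 0 of 8 members were called in TE, beside 3.25% of tested genes lower and 4.19% higher at 6 h, and 5.65% lower and 2.47% higher at 19 h. At 2 h none was called either, beside 1.87% lower and 5.45% higher.

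TUBA1A at 4 h was the exception, with RNA at 47.9 FPKM, its lowest before 19 h, and density at 87.4 FPKM, its highest. The log2 TE change was 0.64 ± 0.062 against a cut-off of 0.48. It was the 1 member of 8 called higher in TE at 4 h, where 12.1% of all tested genes were called higher and 0.855% lower. The median TE change of all tested genes was 0.18 at 4 h, and relative to it TUBA1A was at 0.46, below the cut-off, so the call was lost after centring. It was also lost with the 2 h library as baseline. The sequencing run of the 4 h libraries is not given in the sources used here, and its part in these values was not tested. The other 7 members had TE changes at 4 h between -0.07 ± 0.11 for TUBB2A and 0.36 ± 0.20 for TUBB3.

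**Figure D3:**
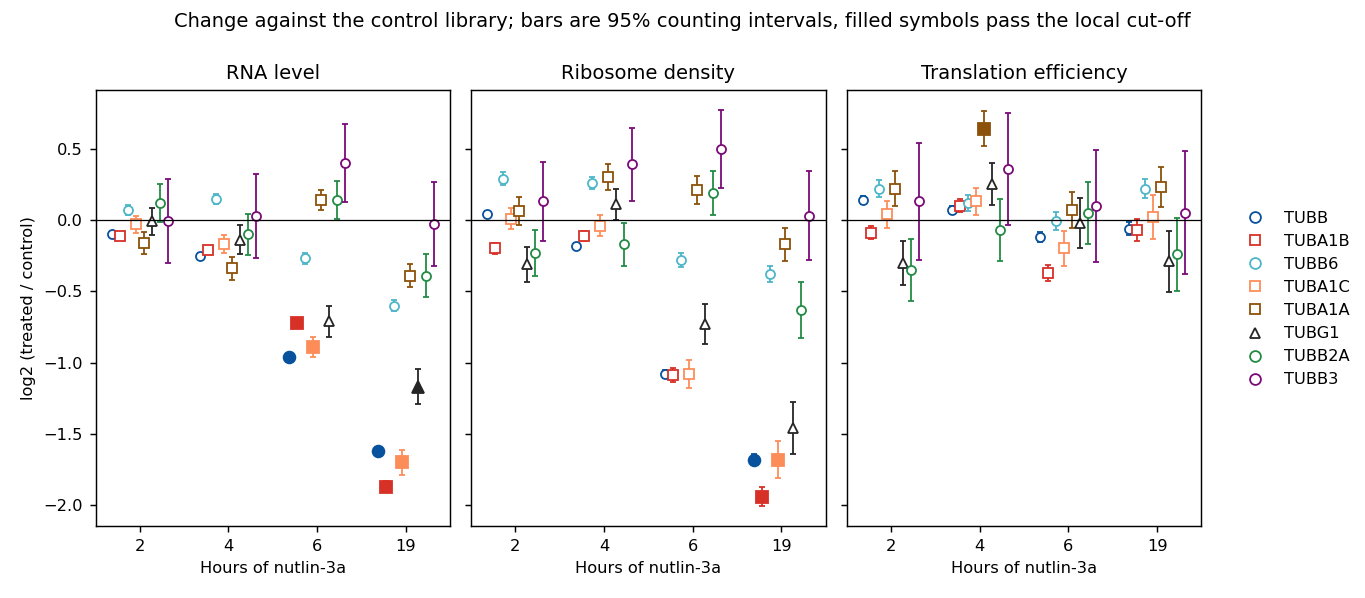
Log2 change from the control library in RNA, ribosome density and TE for the 8 tested tubulins at 2, 4, 6 and 19 h of nutlin-3a, with 95% counting intervals. Filled symbols passed the local cut-off. TUBB, TUBA1B and TUBA1C drop apart from the other members at 6 and 19 h in RNA and density, and TE stays between -0.37 and 0.64.

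The members did not go down in proportion, so the make-up of the tubulin mRNA at 19 h differed from that of the control as well as its summed FPKM. FPKM is scaled to the library total, so these sums are relative levels and not amounts per cell. The summed RNA-Seq level of the 4 alpha members was 805 ± 4.5, 749, 693, 514 and 255 ± 2.4 FPKM over the 5 libraries in order of time, the last being 31.6% of the control. That of the 5 beta members was 1368 ± 4.8, 1310, 1222, 799 and 543 ± 3.0 FPKM, ending at 39.7%. In Ribo-Seq the alpha sum ended at 32.4% and the beta sum at 43.1% of the control. The 10 members together held 0.486% of the RNA-Seq reads in the control (exact 95% binomial interval 0.4835% to 0.4891%) and 0.178% at 19 h (0.1762% to 0.1794%). In Ribo-Seq they held 0.485% (0.4810% to 0.4890%) and 0.186% (0.1833% to 0.1894%). These intervals cover counting error only.

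Within the alpha sum of RNA-Seq FPKM TUBA1A made up 7.56% ± 0.14 in the control, then 7.26%, 6.92%, 13.1% and, at 19 h, 18.2% ± 0.35. TUBA1B went from 78.7% to 68.1%, whereas TUBA1C was at 13.1% and 12.7%. Within the beta sum TUBB went from 79.6% ± 0.15 to 65.4% ± 0.27 and TUBB6 from 18.6% ± 0.15 to 30.8% ± 0.26, with 20.4%, 23.0% and 26.4% at 2, 4 and 6 h. The TUBB6 share was thus higher at each later time, and that of TUBA1A from 6 h on. In Ribo-Seq TUBB6 made up 23.0% ± 0.23 of the beta sum in the control and 41.0% ± 0.50 at 19 h, and TUBA1A made up 8.48% ± 0.20 and 23.3% ± 0.68 of the alpha sum. TUBB2A made up 1.51% and 2.90% of the RNA-Seq beta sum in the control and at 19 h and TUBB3 0.317% and 0.783%, without a called change in level.

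**Figure D4:**
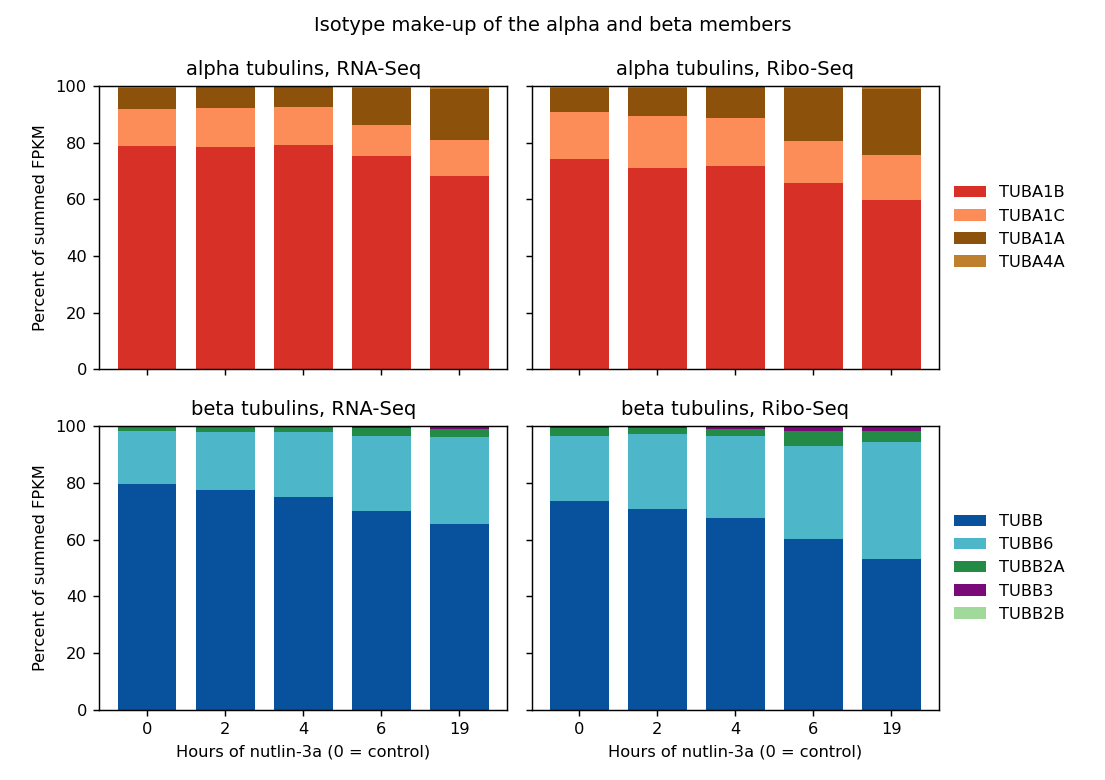
Percent of the summed FPKM of the 4 alpha and of the 5 beta members (stacked bars from 0 to 100) in each library, against hours of nutlin-3a. TUBA1A widens from 7.56% to 18.2% of the alpha sum and TUBB6 from 18.6% to 30.8% of the beta sum in RNA-Seq, and both reach higher shares in Ribo-Seq.

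The order of the members changed accordingly. At 19 h TUBB6 stood at 167 FPKM in RNA-Seq beside 173 for TUBA1B, and in Ribo-Seq it lay above TUBA1B with 239 ± 3.9 against 162 ± 3.6 FPKM. TUBA1A passed TUBA1C at 6 h in both assays, with 67.3 against 57.1 FPKM in RNA-Seq and 82.2 against 65.5 in Ribo-Seq. TUBG1 and TUBB2A, at 34.9 and 20.7 FPKM of RNA in the control, did not differ beyond counting error at 6 h (21.4 and 22.8 FPKM) or 19 h (15.5 and 15.7 FPKM). TUBA4A and TUBB3 did not differ in RNA at 0, 2 and 4 h.

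One abundant beta tubulin, TUBB4B, is outside the list of members but belongs to the same beta pool, at 477 FPKM of RNA in the control and 140 at 19 h. Its RNA change of -1.77 ± 0.021 at 19 h was called, and its density change of -1.64 ± 0.030 stood just inside the cut-off of 1.65. With TUBB4B counted in, the beta RNA sum ended at 37.0% of the control and TUBB6 went from 13.8% to 24.5% of it. Of 12 further tubulin genes listed, TUBB4B and TUBG2 alone passed the filter, and TUBG2, the other gamma tubulin, was at 9.31 FPKM of RNA in the control and 12.2 at 19 h, with a log2 change of 0.39 ± 0.094.

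Genes that fold, modify or bind tubulin were listed by role. In RNA at 19 h 1 of 20 tested genes for tubulin folding (chaperonin, prefoldin and tubulin cofactors) was called lower and 0 higher, with a median of -0.40. The called gene was CCT5, a subunit of the chaperonin that folds tubulin and actin, at 108 and 49.4 FPKM. Of 10 tested genes of the gamma tubulin ring complex and its anchors 2 were called lower and 0 higher, with a median of -0.83: CDK5RAP2, an activator of the complex, with -1.77 ± 0.055, and MZT1, a small subunit, with -1.70 ± 0.081. TUBG1 moved the same way with -1.17. None of 3 tested enzymes of tubulin modification was called (median -0.99), nor the 1 tested gene of the autoregulation list (-0.10). These counts stand beside the 5.10% of all tested genes called lower and the median of -0.07.

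Among microtubule-associated proteins the interphase and mitotic lists differed in their counts, which were not tested against each other. A gene on the interphase list may also act in mitosis. Of 16 tested genes on the interphase list 2 were called lower, STMN1, which binds free tubulin dimers (-2.71 ± 0.055), and CKAP5, a microtubule polymerase (-0.95 ± 0.026). One was called higher, MAP1A, which binds along microtubules (1.14 ± 0.016), and the list's median was -0.16. Of 13 tested mitotic genes 9 were called lower and 0 higher, with a median of -3.84. Among all tested genes 5.10% were called lower and 1.61% higher at this time. The mitotic genes named next had the largest called RNA changes of their list. NUSAP1, which bundles spindle microtubules, went from 64.0 FPKM of RNA in the control to 10.7 at 6 h and 1.77 at 19 h, PRC1, a midzone bundler, from 114 to 19.8 and 3.98, and DLGAP5, a stabiliser of spindle fibres, from 36.3 to 6.48 and 0.981. The called tubulins had 27.4% to 44.5% of the control RNA left at 19 h.

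The genes nearest to the median profile of the 8 members over the same 8 changes, tubulins left out, were PLP2, CCT2, LAS1L, CHCHD3 and METTL1, at root mean square distances of 0.08 to 0.10. No member was as near to it, since the median lies between members that were called and members that were not: TUBG1 was at 0.24 and TUBB3 at 0.69. The largest distance between members was 1.20, between TUBB3 and TUBA1B.

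Values of the whole series that bear on these results are few. CDKN1A, the p53 target that encodes p21, went from 68.6 to 1316 FPKM of RNA between the control and 19 h, and MKI67, a marker of cycling cells, from 77.6 to 0.706. MKI67 RNA, at 6.41 FPKM at 6 h, went down by more than that of the called tubulins. Its log2 change at 6 h was -3.60 ± 0.032, beside -0.96 ± 0.0090 for TUBB. TUBA1A and TUBB2A RNA lay above the control at 6 h. The share of cycling cells was not measured, and its part in the tubulin levels was not tested. All 10 fibroblast markers were above 5 FPKM in every RNA-Seq library, with sums of 10080 to 13554 FPKM. Of 16 markers of epithelial, endothelial, blood and neural cells 7 were listed in the RNA-Seq table and 1 reached 1 FPKM in any library, with sums of 2.17 to 3.68 FPKM.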

How the data were processed

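RNA-Seq and Ribo-Seq of 10 libraries were analysed, 1 per condition and assay, grouped by the sample labels. The FPKM values were deposited by the authors with 3 decimals. The methods of the study state that the authors aligned 50-nt reads with Bowtie (for Ribo-Seq the first 25 nt as a seed) to a single isoform per protein-coding gene of Ensembl release 65 and to rRNAs, and kept unique hits. The submitters' processing notes name hg19. The tables share column names, so each table's assay was read from its name, and histone mRNAs, which lack poly(A), near 0 in the RNA-Seq table were used as a check. The methods describe Ribo-Seq levels from coding-sequence reads, whereas the headers say total and both tables give the same transcript lengths, so reads outside the coding sequence may be part of them. The study describes an effect of sequencing run and states that conditions were compared with a control of their own run. Its sample list places a control beside the 6 and 19 h libraries, under a name the labels do not use, and does not hold the 2 and 4 h libraries. For Ribo-Seq of that control and of 6 and 19 h it gives fewer reads in the coding sequence and in frame 0, in percent. Both shares were below those of the other Ribo-Seq libraries listed. The labels name no run, so for 2 and 4 h run and time cannot be told apart.

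Totals, lengths and reads were recovered from the spacing of FPKM values, for 99.9% of the 11258 shared transcripts, and the steps were tested on simulated data. Counting SEs of log2 changes are from these reads, and PCR copies could not be removed. Values were floored at 1 FPKM. Calls used the study's sliding cut-off, a multiple of the local SD around 0, with a window of 500 neighbours in level chosen here. The members, lists, motifs and rules were chosen with earlier results of these data known. In each list, up to 3 genes with the largest called RNA change at 19 h were named, or all where 5 or fewer were called, and the likeness rule named 5 genes. Alternatives were a pseudocount of 1 FPKM, a floor of 5 FPKM, the 2 h library as baseline, centring, no filter, a mean of at least 20 FPKM, removal of a length trend, a window of 200 neighbours and a log2 change of at least 1. Python 3.11.15, NumPy 2.4.6, pandas 2.3.3 and SciPy 1.17.1 were used. Protein sequences were not used here.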

Additional observations from a re-analysis of the deposited data

Results flagged for a closer look

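For some tubulins the change from the control lay beyond counting error in opposite directions at different times. Each value below is the highest log2 change minus the lowest, the times share the control library, and with 1 library per time these differences were not tested.

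In RNA, TUBA1A was at 0.14 at 6 h and -0.39 at 19 h, a difference of 0.54. TUBB2A had the same pair of values, with a difference of 0.54. TUBB6 was at 0.15 at 4 h and -0.60 at 19 h, a difference of 0.75.

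In ribosome density, TUBA1A was at 0.30 at 4 h and -0.17 at 19 h, a difference of 0.47. TUBB2A was at 0.19 at 6 h and -0.63 at 19 h, a difference of 0.82, and TUBB6 at 0.29 at 2 h and -0.38 at 19 h, a difference of 0.67. TUBG1 was at 0.11 at 4 h and -1.46 at 19 h, which differ by 1.57. TUBB was at 0.04 at 2 h and -1.68 at 19 h, which differ by 1.72, where the value of 2 h is 103% of the control.

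In TE, TUBA1B was at 0.10 at 4 h and -0.37 at 6 h, a difference of 0.48. TUBA1C differed by 0.32 between the same times, and TUBB by 0.26 between 2 and 6 h. TUBG1 was at 0.25 at 4 h and -0.30 at 2 h, a difference of 0.55. The median TE change over all tested genes was 0.04 at 2 h, 0.18 at 4 h and 0.00 at 6 h, so the values at 4 h stand beside a higher median. At 4 h 26.7% of the tested genes lay below the control in TE.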

How the results depend on the processing

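No paired analysis was possible because each group held 1 library and the result comes from no test, and for the same reason no replicate could be left out. A pseudocount and a floor of 5 FPKM moved no median beyond its 95% counting interval. Medians of the members after centring on all tested genes were -0.08 (RNA, 4 h), -0.82 (RNA, 19 h), -0.07 (density, 4 h) and -0.85 (density, 19 h), and the median TE change at 4 h turned from 0.12 to -0.06. With the 2 h baseline the medians were -0.91 (density, 19 h), 0.21 (TE, 4 h) and -0.19 (TE, 6 h). Without a filter they were -0.38 (RNA, 6 h) and -0.82 (density, 19 h). Among members with a mean of at least 20 FPKM they were -0.71 and -1.17 in RNA at 6 and 19 h and -0.04, -0.73 and -1.46 in density at 4, 6 and 19 h. Adding TUBB4B, chosen after seeing the data, gave -0.71 and -1.17 in RNA and -0.04, -0.73 and -1.46 in density at the same times. With the length trend removed the median was 0.07 both in density at 2 h and in TE at 19 h. Of the counts of called members, those lower in RNA at 6 h went from 3 to 0 with a log2 change of at least 1 (beside 5.39% of all tested genes). Those lower in density at 6 h went from 0 to 3 with the 2 h baseline (beside 5.37%) or a log2 change of at least 1 (8.04%), and to 1 with a window of 200 neighbours (4.42%). The TE call at 4 h went to 0 with the 2 h baseline (beside 7.17% called higher), after centring (4.28%) and with a log2 change of at least 1 (0.870%). The calls of TUBA1B, TUBA1C and TUBB in RNA at 19 h, and of TUBA1B and TUBA1C in density at 19 h, held under all 9 alternatives. From Ribo-Seq in place of RNA-Seq FPKM the TUBA1A share was 8.48% in the control and 23.3% at 19 h and that of TUBB6 23.0% and 41.0%, and with TUBB4B in the RNA-Seq sum the latter was 13.8% and 24.5%. Depth limits TUBB2B, with 3 to 42 Ribo-Seq reads per library, TUBA4A and TUBB3.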

Other observations

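The ratio of the summed alpha to the summed beta RNA-Seq FPKM was 0.589 ± 0.0039 in the control and then 0.572, 0.567, 0.643 ± 0.0050 and 0.469 ± 0.0051 in order of time. The 6 h library had the highest ratio and the 19 h library the lowest. In Ribo-Seq the ratio was 0.621 ± 0.0058, 0.528, 0.621, 0.569 and 0.466 ± 0.0091, also lowest at 19 h. These beta sums leave out TUBB4B. With it the RNA-Seq ratio was lower, at 0.436 in the control, 0.495 at 6 h and 0.373 at 19 h. In Ribo-Seq it was then 0.416 in the control and 0.341 at 19 h.

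TUBB2B, a beta tubulin known from the developing brain that is very similar to TUBB2A, had 21 to 25 RNA-Seq reads in each library, at 0.381 to 0.504 FPKM. In Ribo-Seq it had 12, 10, 42, 3 and 9 reads in the control and at 2, 4, 6 and 19 h. The 4 h library, at 1.45 FPKM, stood apart from the others, at 0.149 to 0.582.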
